A study of Mus musculus with 127 samples.

Results

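Ly6g, Ly6c1, Ly6c2, Ly6a and Ly6e are 5 of the 23946 genes in the deposited table, and they were chosen by name as the sorting marker Ly6g and its relatives of the Ly6 family. Their transcripts were followed in 127 single cells of wild-type C57BL/6 mouse bone marrow. Marrow from crushed hindlimbs was enriched with beads for CD117 (the receptor Kit), stained and sorted by flow cytometry, and single cells were captured on the Fluidigm C1 system for full-length cDNA (SMARTer) and Nextera XT libraries. The labels give 46 cells as CD11b+ Ly6g high, 41 as CD11b+ Ly6g low and 40 as CD11b+, all of a population they call GMP-P. These groups are called the Ly6g high, Ly6g low and CD11b+ gates below, and the labels give no age, agent or further allele for any of them. The labels name no animal, so each gate is 1 sample without replicates: no difference between gates could be tested, and intervals cover the counting of cells only. The cell names of each gate carry a prefix of their own and do not state a capture run. A difference of run between gates therefore cannot be told from one of gate.

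Ly6 proteins are small, cysteine-rich proteins of the Ly6/uPAR family that hang on the outer cell surface by a lipid (GPI) anchor. Antibodies to them sort blood cells: Ly6G marks granulocytes, Ly6C (from the near-identical genes Ly6c1 and Ly6c2) marks monocytes and their precursors as well as granulocytes, Ly6A is the stem cell antigen Sca-1, and Ly6E is a broadly made, interferon-inducible relative. The older antibody Gr-1 binds both Ly6G and Ly6C, and the labels do not name the antibody clone. A gate is set on surface protein, whereas the table holds transcript, so the Ly6g values below show how the sorting marker's message followed the gate.

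All of these genes lie in 1 cluster on chromosome 15 in the RefSeq annotation of GRCm38.p6, in the order Ly6e, Ly6i, Ly6a, Ly6c1, Ly6c2, Ly6a2, Ly6g, Ly6g2, Ly6f. The files were made on the build mm9, so positions are not given. The likeness of the genes bears on how reads could be assigned to them, and the start of each coding sequence is therefore shown. Below are bases 1 to 120 of the coding sequence (GENCODE M21, GRCm38, from the start codon, 5′ to 3′ on the coding strand), with capitals where a base differs from the aligned base of Ly6c2.
Ly6c2: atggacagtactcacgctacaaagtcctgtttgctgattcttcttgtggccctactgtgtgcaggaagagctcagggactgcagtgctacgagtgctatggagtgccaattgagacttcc
Ly6c1: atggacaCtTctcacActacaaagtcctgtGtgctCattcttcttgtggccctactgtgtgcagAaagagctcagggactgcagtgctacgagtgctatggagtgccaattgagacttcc
Ly6a: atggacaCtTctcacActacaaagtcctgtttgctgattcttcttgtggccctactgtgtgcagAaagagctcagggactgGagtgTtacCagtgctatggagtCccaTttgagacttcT
Ly6g: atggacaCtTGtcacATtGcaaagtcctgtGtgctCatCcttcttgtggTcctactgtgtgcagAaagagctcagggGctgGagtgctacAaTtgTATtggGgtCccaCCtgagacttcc
Ly6e: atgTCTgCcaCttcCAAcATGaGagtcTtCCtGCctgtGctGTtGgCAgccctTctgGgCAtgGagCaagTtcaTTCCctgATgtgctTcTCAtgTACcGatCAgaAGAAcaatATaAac
Over these 120 bases Ly6c1 differed from Ly6c2 at 6, Ly6a at 10, Ly6g at 22 and Ly6e at 53. Over the whole coding sequence Ly6c1 was 97.7% identical to Ly6c2, with an unbroken shared run of 188 bases, longer than the 150 bp reads. Ly6a was 83.6% identical to Ly6c2 with a longest shared run of 52 bases, Ly6g 80.1% with 35 bases and Ly6e 60.5% with 9 bases. The split of reads between Ly6c1 and Ly6c2 is uncertain for that reason, and their sum is given beside them.

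Levels are in TPM, a transcript abundance scaled for gene length and to a fixed total within each cell, so genes can be compared with each other. A gene was called detected in a cell at 1 TPM or more. TPM keeps no read depth. The median cell had 1695 detected genes in the Ly6g high gate, 2521 in the Ly6g low and 2464.5 in the CD11b+ gate. An exact 0 can be a transcript that was missed: the ribosomal protein gene Rplp0 was listed at 0 in 9 of 127 cells. CD11b itself (Itgam, an integrin chain of myeloid cells) was detected in 41 of 46, 37 of 41 and 27 of 40 cells in that order of gates, and Kit in 6, 9 and 19 cells.

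Ly6g, the sorting marker, was present at high level in some cells of every gate and listed at 0 in others of the same gate. In the Ly6g high gate the lowest cell was at 0, the median at 179.8 TPM and the highest at 5384 TPM. In the Ly6g low gate the lowest, median and highest were 0, 1.96 and 2336 TPM, and in the CD11b+ gate 0, 0 and 3493 TPM. The gates overlapped over most of their ranges, although the medians fell in the order of the labels.

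The Ly6g high gate had a mean of 936 TPM and the Ly6g low gate one of 353 TPM, a log2 ratio of 1.41 after adding 1 TPM to each mean. A gene counted as measured in a pair of gates where 25% or more of one gate's cells detected it. Of the 3983 genes measured in that pair, 7.96% were at least 2-fold higher in Ly6g high and 23.7% at least 2-fold lower, and 95.6% had a lower ratio than Ly6g. In the CD11b+ gate the mean was 171 TPM, which gives log2 ratios of -1.04 against Ly6g low and -2.44 against Ly6g high. At least 2-fold lower in CD11b+ stood 7.83% of 4774 measured genes in the first of these pairs and 6.93% of 4447 in the second. A single Myelo-4 cell, number 17, held 51% of all Ly6g in the CD11b+ gate, and the mean without it was 86.2 TPM.

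**Figure D1:**
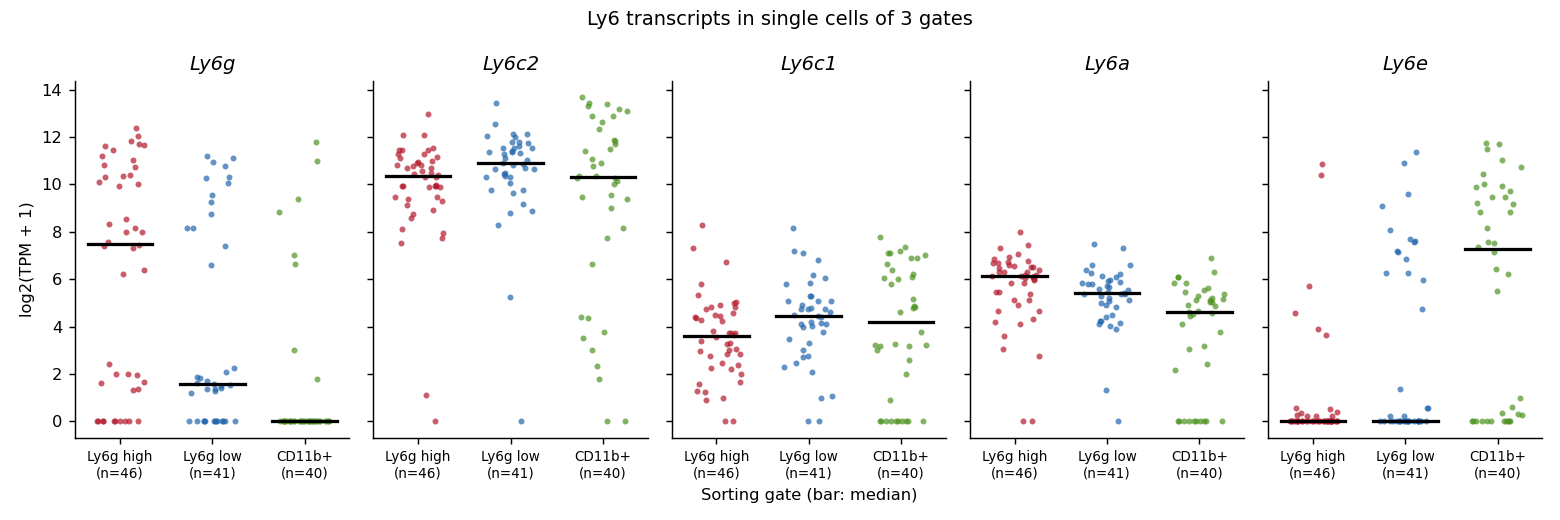
Level of each Ly6 transcript in single cells, as log2(TPM + 1) on the vertical axis, by sorting gate (46 Ly6g high, 41 Ly6g low and 40 CD11b+ cells). Each point is 1 cell and bars are medians. Ly6g splits into cells at or near 0 and cells near or above 100 TPM within every gate, Ly6c2 is above 100 TPM in 114 of 127 cells, and Ly6e is at 0 in most cells of the Ly6g gates.

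The Ly6g level fell into separate ranges, with an empty stretch between them. It was listed at 0 in 55 of 127 cells and lay between 1 and 10 TPM in 24 cells. No cell lay between 7.18 TPM and the next value of 72.4 TPM. At 72.4 TPM or above stood 48 cells, 44 of them at 100 TPM or more.

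The gates differed in how many cells stood in each range. At 100 TPM or more were 26 of the 46 cells sorted as Ly6g high (56.5%, exact 95% interval 41.1 to 71.1%). The Ly6g low gate had 13 such cells of 41 (31.7%, 18.1 to 48.1%), and the CD11b+ gate had 5 of 40 (12.5%, 4.19 to 26.8%). Cells between 1 and 10 TPM numbered 8, 14 and 2 in that order. Of the Ly6g high cells 10 were listed at 0, namely 5 Myelo-2, 3 Myelo-4, 1 Myelo-3 and 1 Mono cell, in the class names that the authors deposited for each cell. Thus 18 of the 46 cells sorted as Ly6g high were under 10 TPM for Ly6g transcript, and 13 of the 41 sorted as Ly6g low were at 100 TPM or more.

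**Figure D2:**
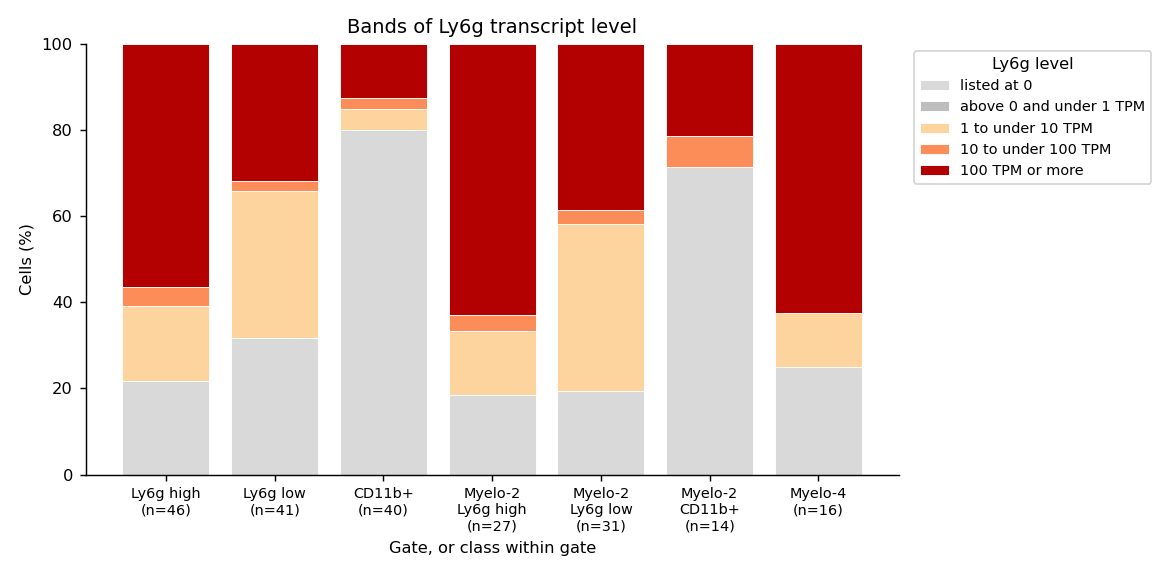
Share of cells (vertical axis, %) in each range of Ly6g level, by gate, for Myelo-2 cells of each gate, and for Myelo-4 cells of all gates. Cells at 100 TPM or more make up 56.5%, 31.7% and 12.5% of the gates, and 63%, 38.7% and 21.4% of their Myelo-2 cells.

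Ly6g was confined to part of the classes at any level above 10 TPM. The deposited classes were made from the same cells and genes, so levels by class are a description. Every one of the 48 cells above that level was Myelo-2, Myelo-3 or Myelo-4. In Myelo-4 (16 cells, 13 of them Ly6g high) the lowest, median and highest were 0, 661 and 4220.5 TPM, in Myelo-2 (72 cells) 0, 3.45 and 5384 TPM, and in Myelo-3 (9 cells) 0, 2.52 and 1697 TPM. In the other 30 cells the highest Ly6g value was 2.95 TPM.

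The classes named Gran had no Ly6g transcript listed. Ly6g was listed at 0 in all 4 Gran-1 and all 6 Gran-2 cells, and 0 of 10 cells allows a share of up to 30%. None of them came from the Ly6g high gate, and only 2 Gran-2 cells from Ly6g low, so class and gate cannot be told apart here. Those classes held primary granule genes, the early set of neutrophil granule proteins such as Elane and Mpo. The 8 listed genes summed to between 76336 and 142509.5 TPM in Gran-1 and between 56258 and 119972 TPM in Gran-2, against a median of 128 TPM in Myelo-2. Some other classes with Ly6g of at most 2.44 TPM held them too: Mono (22149.8 to 67337 TPM), Myelo-1 (18268 to 52256 TPM) and the single Multi-Lin (57999 TPM) and MDP (15698 TPM) cells. The split was not clean. The single Eryth cell, with Ly6g at 0, had 96.6 TPM, HSCP-2 (Ly6g up to 2.95 TPM) ran from 1.54 to 52435 TPM, and Myelo-2 reached 26623 TPM. The summed late neutrophil genes, such as Mmp8 and Retnlg, had a median of 12293 TPM in Myelo-4, 1902 TPM in Myelo-2 and 334 TPM in Gran-1. Ranges of Ly6g overlapped between every pair of neighbouring classes in the order of medians.

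Within Myelo-2, the class with most cells in every gate (27, 31 and 14 cells), the order of the gates was the same. In that order the median Ly6g level of Myelo-2 cells was 255, 2.70 and 0 TPM, with highest values of 5384, 2336 and 667 TPM. Their means were 842, 446 and 96.5 TPM, log2 ratios of 0.91 for high over low, -2.20 for CD11b+ over low and -3.11 for CD11b+ over high. Among genes measured in Myelo-2 cells, 13.1% were at least 2-fold higher in Ly6g high than in Ly6g low, and in CD11b+ 23.4% were at least 2-fold lower than in Ly6g low and 19.8% lower than in Ly6g high (23.2% were higher). At 100 TPM or more stood 17 of 27, 12 of 31 and 3 of 14 cells, and their exact intervals overlapped (42.4 to 80.6%, 21.8 to 57.8% and 4.66 to 50.8%). The ratio of high over low in Myelo-2 was thus below 2-fold, where it was 2.65-fold over all cells.

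Ly6c2, the more abundant of the genes for Ly6C, was the most abundant of the 5 transcripts and was detected in 45 of 46, 40 of 41 and 38 of 40 cells. The lowest, median and highest cells of the Ly6g high gate had 0, 1308 and 7932 TPM. The Ly6g low gate ran over 0, 1933 and 11163 TPM in the same way, and the CD11b+ gate over 0, 1272 and 13089 TPM. The gates overlapped throughout, and the CD11b+ gate had both the highest cells and the most cells under 100 TPM (9 of 40, against 2 in each other gate).

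Gate means of Ly6c2 were 1578, 2361 and 3056 TPM in the same order. The log2 ratios were -0.58 for Ly6g high over Ly6g low, 0.37 for CD11b+ over Ly6g low and 0.95 for CD11b+ over Ly6g high, all short of 2-fold and not far from the median of all measured genes in the same pairs (-0.29, 0.48 and 0.83). The sign for CD11b+ depended on the kind of mean, because the differences of mean log2(TPM + 1) were -1.35 against Ly6g low and -0.66 against Ly6g high. It depended on the classes as well: in Myelo-2 cells mean Ly6c2 was 1428, 2077 and 1028 TPM, and CD11b+ was then lower than either Ly6g gate (log2 ratios of -1.01 and -0.47).

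Ly6c2 was ordered by class in another way than Ly6g. Gran-1 had the highest median, 10902 TPM, with 4 cells between 9184 and 13089 TPM. Its range did not overlap that of Mono, next in order of medians (5 cells, 3643 to 8781 TPM, median 7642 TPM). It did overlap the ranges of Gran-2 (up to 11163 TPM) and Myelo-4 (up to 10094 TPM). Each of these overlaps came from a single cell, as the next Gran-2 cell was at 6316 TPM and the next Myelo-4 cell at 4391 TPM. The share of all genes that separate Gran-1 from Mono in this way was not counted. Gran-2 (median 4804 TPM), Myelo-1 (3120.0 TPM), Myelo-4 (1521 TPM), Myelo-2 (1379 TPM) and Myelo-3 (249.5 TPM) followed, each overlapping its neighbour. HSCP-2, 7 cells of which 5 came from the CD11b+ gate, was at 0 to 12.6 TPM. All 72 Myelo-2 cells were at or above 100 TPM for Ly6c2, whereas 37 of them were under 10 TPM for Ly6g.

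**Figure D3:**
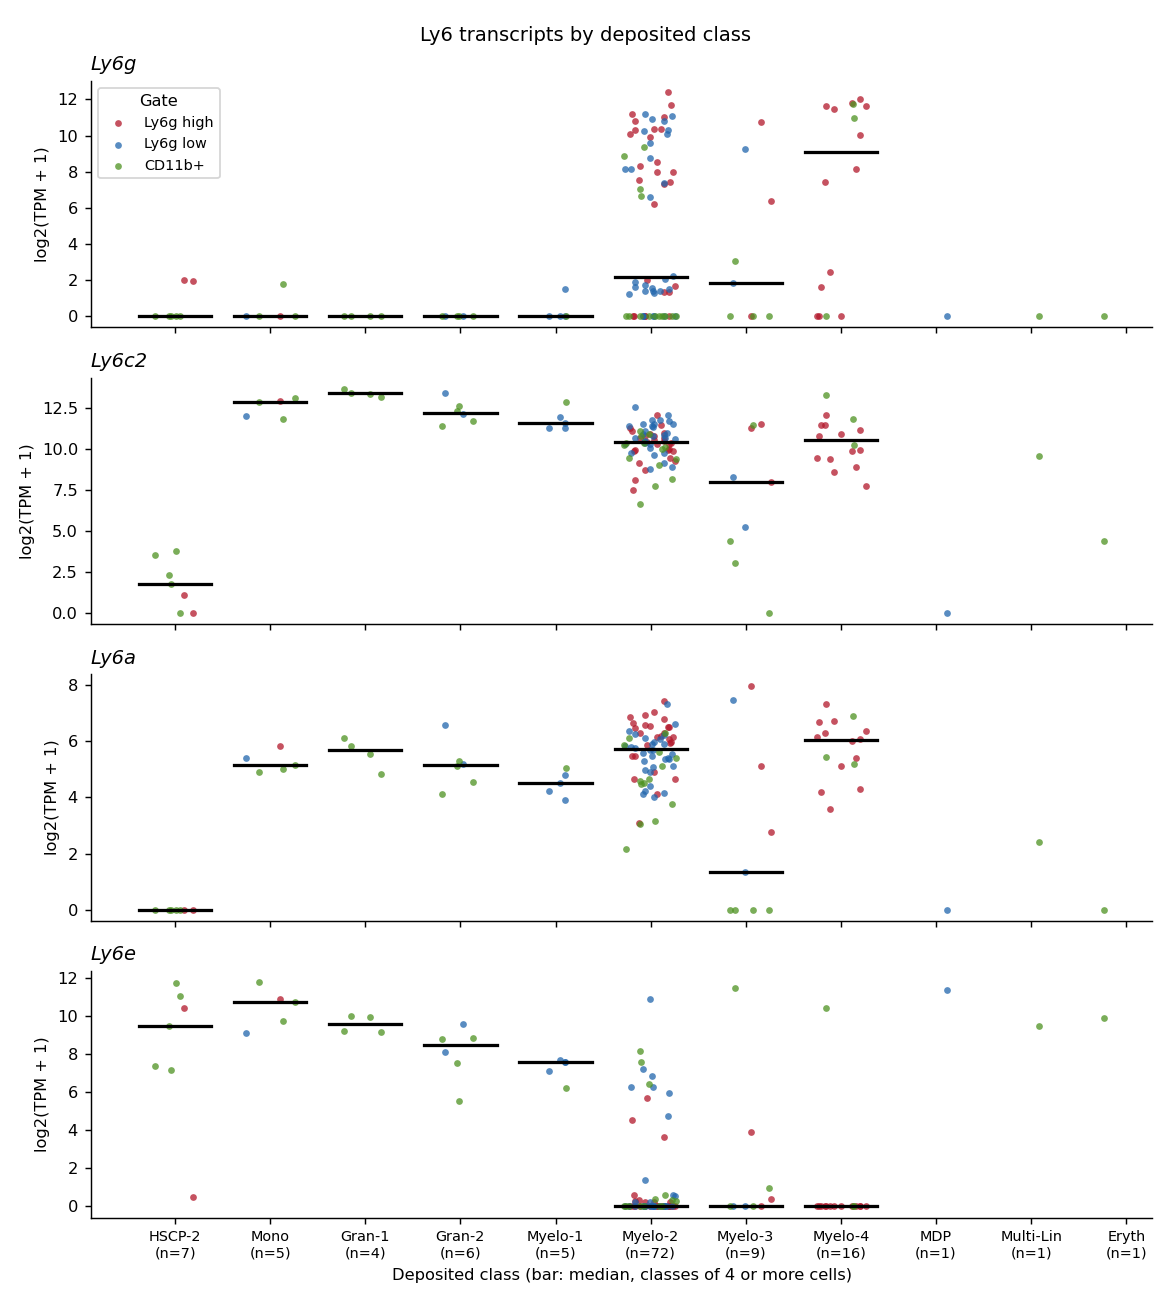
Levels of Ly6g, Ly6c2, Ly6a and Ly6e, as log2(TPM + 1), by deposited class. Each point is 1 cell, coloured by gate, and bars are medians of classes with 4 or more cells. Ly6g above 10 TPM is seen in Myelo-2, Myelo-3 and Myelo-4 only, Ly6c2 is highest in Gran-1 (median 10902 TPM), and Ly6e is detected in 29 of the 30 cells outside those 3 classes.

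Ly6c1, the near copy of Ly6c2, stood far below it and was highest in the same classes. Its lowest, median and highest cells of the Ly6g high gate had 0, 11.1 and 312 TPM. The Ly6g low gate ran over 0, 20.5 and 287 TPM in the same way, and the CD11b+ gate over 0, 18.1 and 222 TPM. In the 114 cells with Ly6c2 at 100 TPM or more it made up a median of 1.17% of the Ly6c2 level (0 to 22.5%), and the medians per gate were 1.10%, 1.08% and 1.38%. In the 13 cells with less Ly6c2 it was listed at 0 throughout.

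Across the 127 cells the Spearman correlation of Ly6c1 with Ly6c2 was 0.78, and across 72 Myelo-2 cells 0.58. Cells of a gate share a sort and a name prefix, all cells share the total to which TPM is scaled, and these 2 genes share sequence, so the share of this correlation that comes from reads of Ly6c2 assigned to Ly6c1 was not tested. Gate means of Ly6c1 were 25, 36.1 and 47.1 TPM, log2 ratios of -0.52 for high over low, 0.37 for CD11b+ over low and 0.89 for CD11b+ over high. The summed level of both genes had the ratios -0.58, 0.37 and 0.95, as Ly6c2 alone. In Myelo-2 cells the mean of Ly6c1 was 14.4 TPM for Ly6g high against 35 TPM for Ly6g low, a log2 ratio of -1.22 (19.8% of measured genes were at least 2-fold lower there). Without the highest Ly6g low cell, number 5 at 287 TPM, the Ly6g low Myelo-2 mean was 26.6 TPM.

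Ly6a, which encodes Sca-1, was detected in nearly all cells of the Ly6g gates at modest level, and had the narrowest spread. The lowest, median and highest cells of the Ly6g high gate had 0, 68.4 and 252 TPM. The Ly6g low gate ran over 0, 41.9 and 176 TPM in the same way, and the CD11b+ gate over 0, 23.8 and 118 TPM. It was detected in 44 of 46, 40 of 41 and 30 of 40 cells. Medians fell in the same gate order as for Ly6g, with wide overlap.

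Mean Ly6a was 69.8, 49 and 27.2 TPM, log2 ratios of 0.50 for high over low, -0.83 for CD11b+ over low and -1.33 for CD11b+ over high. Of the measured genes 81.1%, 10.2% and 4.25% had a lower ratio in these pairs. In Myelo-2 cells, where all 72 cells had Ly6a, the order of the medians was the same at 72.3, 46.6 and 23.8 TPM. The ratio of high over low there was 0.54, and that of CD11b+ over high -1.19.

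Ly6a was not detected in HSCP-2. It was listed at 0 in all 7 HSCP-2 cells, which allows a share of up to 42.9%, and in the single MDP and Eryth cells. In Myelo-3 it was listed at 0 in 4 of 9 cells, all 4 from the CD11b+ gate, and the class median was 1.53 TPM. It was present in every Myelo-4 cell (16 cells, 11.1 to 159 TPM), every Gran-1 cell (27.9 to 68.2 TPM), every Gran-2 cell (16.4 to 94.9 TPM) and every Mono cell (29.1 to 56.6 TPM). Class medians from Myelo-4 (65.7 TPM) to Myelo-1 (21.7 TPM) overlapped with their neighbours. Ly6a was detected in 1 of the 13 cells with Ly6c2 under 100 TPM, at 1.53 TPM, and in 113 of the 114 other cells. It stood at 0.304 to 0.521% of Ly6c2 in Gran-1, 0.606 to 0.850% in Gran-2 and 0.381 to 0.988% in Mono, against 0.262 to 55.3% in Myelo-2. The Spearman correlation of Ly6a with Ly6c2 was 0.23, 0.14 and 0.65 in Ly6g high, Ly6g low and CD11b+ cells. These genes share a coding run of 52 bases, and whether Ly6a reads came from Ly6c2 was not tested.

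As a share of Ly6c2, Ly6a had medians that were further apart between gates than those of Ly6c1. It made up a median of 5.42% of Ly6c2 in Ly6g high, 1.91% in Ly6g low and 0.868% in CD11b+ cells with Ly6c2 at 100 TPM or more, and reached 57.3% in 1 Ly6g low cell. The median share was 0.472% in Gran-1 and 0.713% in Mono, against 3.99% in Myelo-2. Its closest companion was Ly6i, another gene of the cluster, with a Spearman correlation of 0.90 over 127 cells and 0.91 over 72 Myelo-2 cells. Ly6i and Ly6a are 86.4% identical in coding sequence and share a run of 80 bases, so reads may be shared between them, and this was not tested. In the 13 cells with Ly6a at 100 TPM or more, Ly6i stood at 41.2 to 75% of it.

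Ly6e had the opposite gate order from Ly6g, and differed most between the CD11b+ gate and the Ly6g high gate. The lowest, median and highest cells of the Ly6g high gate had 0, 0 and 1877 TPM. The Ly6g low gate ran over 0, 0 and 2676 TPM in the same way, and the CD11b+ gate over 0, 153 and 3479 TPM. Detection was counted in 6 of 46 Ly6g high cells (13%, exact 95% interval 4.94 to 26.3%). The Ly6g low count was 16 of 41 (39%, 24.2 to 55.5%), and 24 of 40 cells (60%, 43.3 to 75.1%) had Ly6e in the CD11b+ gate. The ranges overlapped. Among cells with 1500 to 3000 detected genes (29, 25 and 21 cells) the shares were 17.2%, 16% and 42.9%, so that Ly6g low was no longer above Ly6g high.

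Mean Ly6e was 72.4, 180.4 and 582 TPM, log2 ratios of -1.31 for high over low, 1.69 for CD11b+ over low and 2.99 for CD11b+ over high. Of the measured genes 30.3% were at least 2-fold higher in CD11b+ than in Ly6g low, and 44.5% than in Ly6g high, so that a rise of this kind was common. Single cells weighed heavily. In Ly6g high a Mono cell, number 77, held 56.4% of the sum and the mean without it was 32.3 TPM, and in Ly6g low a cell of class MDP, number 40, held 36.2% and the mean without it was 118 TPM. That cell went against its class name, since the monocyte list summed to 25.9 TPM in it with 10 of 12 genes at 0, the dendritic list to 0.870 TPM, and the basophil and mast cell list to 222546 TPM.

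By class, Ly6e was detected in 29 of the 30 cells outside Myelo-2, Myelo-3 and Myelo-4, and in 17 of the 97 cells within them. The medians were 1699.7 TPM in Mono (549 to 3479 TPM), 777 TPM in Gran-1 (568 to 1041 TPM), 706 TPM in HSCP-2 (0.430 to 3360.2 TPM), 360.3 TPM in Gran-2 (44.7 to 773 TPM) and 189 TPM in Myelo-1 (73 to 208 TPM), with overlap between neighbours. In Myelo-2, Myelo-3 and Myelo-4 the median was 0, and all 13 Ly6g high Myelo-4 cells were listed at 0, which allows a share of up to 23.1%. Genes detected per cell moved with this: the class medians were 4679 in Mono, 3678 in Gran-1 and 4315.5 in Gran-2, against 2239.5 in Myelo-2, 1282 in Myelo-3 and 1409 in Myelo-4, and the Spearman correlation of Ly6e with genes detected was 0.60 over 127 cells. The part of genes detected in the Ly6e pattern was not tested. Among cells with 1500 to 3000 genes the log2 ratio of high over low was 2.03, against -1.31 over all cells. That ratio rests largely on 1 Ly6g high HSCP-2 cell, number 85, at 1351 TPM. The next Ly6g high cell of that set was at 51.1 TPM, and its highest Ly6g low cell at 146 TPM.

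Within Myelo-2 the gate difference in Ly6e did not keep its form. Ly6g high had 3 of 27 Myelo-2 cells with Ly6e (11.1%, exact 95% interval 2.35 to 29.2%). There were 8 of 31 in Ly6g low (25.8%, 11.9 to 44.6%) and 3 of 14 in CD11b+ (21.4%, 4.66 to 50.8%), and these intervals overlap. The means were 3.21, 77.4 and 39.9 TPM, so that CD11b+ over low was -0.94 where it was 1.69 over all cells. A single Ly6g low cell, number 10 at 1897 TPM, held 79% of the Ly6g low sum, and the mean without it was 16.8 TPM, below that of CD11b+.

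In the same cell, Ly6g transcript was almost always accompanied by Ly6c2, which was itself detected in 123 of all 127 cells (96.9%). Both were detected in 35 of 46 Ly6g high cells (76.1%), 28 of 41 Ly6g low cells (68.3%) and 8 of 40 CD11b+ cells (20%), and 71 of the 72 cells with Ly6g had Ly6c2. The reverse did not hold, because 52 of the 123 cells with Ly6c2 had no Ly6g detected. Those 52 were among the 55 cells without Ly6g, so Ly6c2 was near as common there, and the counts show no link between the genes. At 100 TPM or more the exception was 1 Myelo-3 cell of the Ly6g low gate, with Ly6g at 613 TPM and Ly6c2 at 37.2 TPM.

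The correlation of the Ly6g and Ly6c2 levels was furthest from 0 in the Ly6g low gate. The Spearman correlation was -0.41 over the 41 Ly6g low cells, 0.06 over the Ly6g high and -0.03 over the CD11b+ cells. Over all 127 cells it was -0.12, and over 72 Myelo-2 cells 0.05. Whether the gates differ in this was not tested. In cells with Ly6c2 at 100 TPM or more, Ly6g ranged from 0 to 1525% of it. The median was 22.3% in Ly6g high, 0.0879% in Ly6g low and 0 in CD11b+ cells. Ly6g exceeded Ly6c2 in 12 of 46, 4 of 41 and 3 of 40 cells.

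Ly6g and Ly6e were seldom high together. Both reached 100 TPM in 1 of 127 cells, a Ly6g low Myelo-2 cell with 1958 TPM of Ly6g and 114 TPM of Ly6e, while 43 cells had only Ly6g and 33 only Ly6e at that level. The Spearman correlation was -0.47 over all cells, and -0.15 within Myelo-2. At the detection level of 1 TPM, 15 cells held both, 11 of them Myelo-2.

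**Figure D4:**
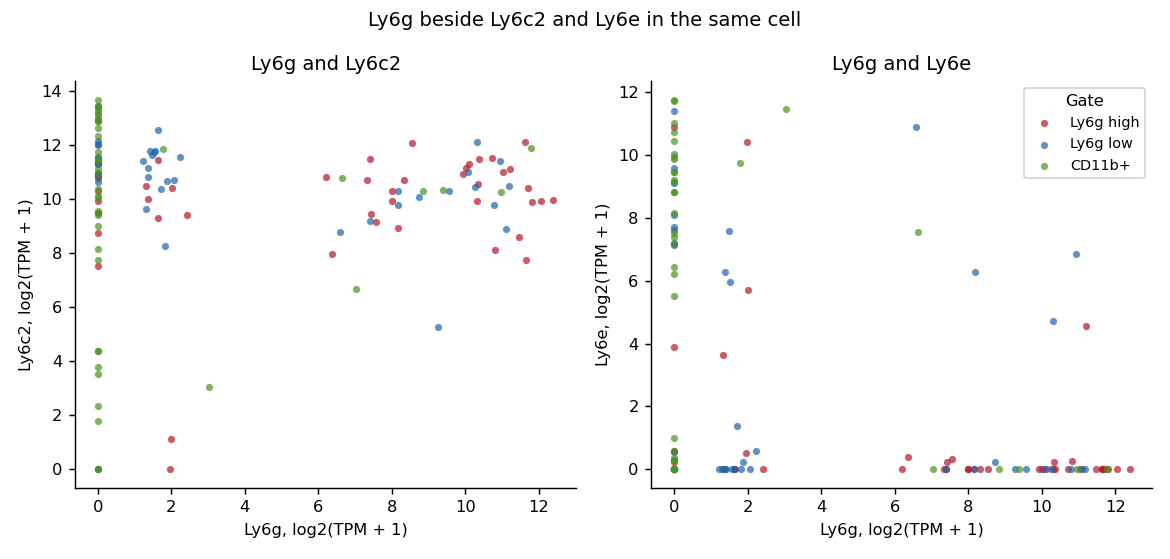
Ly6g (horizontal axes) beside Ly6c2 (left) and Ly6e (right) in the same cell, all as log2(TPM + 1), 1 point per cell, coloured by gate. Cells with Ly6g of 100 TPM or more spread over the Ly6c2 range (43 of 44 have Ly6c2 at 100 TPM or more, against 114 of all 127 cells), while most of them lie at 0 for Ly6e.

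Few other genes of the Ly6/uPAR family were detected in these cells. Of 30 further family members in the table, 4 were measured in the pair of Ly6g gates, and none of these differed by 2-fold, with a median log2 ratio of 0.61 for Ly6g high over Ly6g low against -0.29 for all measured genes. In CD11b+ 1 of 3 was at least 2-fold lower than in Ly6g low (median -0.82), and 3 of 4 than in Ly6g high (median -1.18), with 0 higher in either pair. Over all measured genes 7.83% and 6.93% were lower in these pairs, with medians of 0.48 and 0.83. Those detected in at least 10% of the cells of a gate were Cd177, Plaur, Ly6i, Ly6f and Ly6g5b. Cd177, a neutrophil surface protein, had gate means of 1095, 1029 and 466 TPM in Ly6g high, Ly6g low and CD11b+, and Plaur, the urokinase receptor, 306, 206 and 139 TPM. Ly6i had 35.4, 20.2 and 11 TPM, and Ly6g5b 35.2, 17.2 and 15.5 TPM with detection in 9, 3 and 3 cells.

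Ly6f appeared only where Ly6g was high. It was detected in 22 cells, in all of which Ly6g was at 457 TPM or more, and in cells with Ly6g at 100 TPM or more it made up a median of 0.101% of Ly6g (0 to 0.319%). The Spearman correlation of the pair was 0.72 over 127 cells. The coding sequences are 82.5% identical with a longest shared run of 34 bases, and whether Ly6f reads came from Ly6g was not tested. Gate means of Ly6f were 1.24, 0.426 and 0.243 TPM, near the limit of detection used here.

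Genes that build the GPI anchor, on which these proteins depend at the surface, were sparsely detected. The table held 27 of the listed genes, and 7 were measured in the pair of Ly6g gates, 0 at least 2-fold higher and 2 lower in Ly6g high, with a median log2 ratio of -0.65. This is near the 23.7% of all measured genes that were lower in that pair (median -0.29). The 2 were Pigs (14.4 against 31.4 TPM) and Pigv (15.2 against 32.6 TPM), named after their values were seen. By the naming rule the most extreme were Pigo (0.0524 against 6.99 TPM), Pigw (0.00761 against 6.69 TPM) and Pigl (0.105 against 4.48 TPM), each detected in at most 4 cells of either gate. In CD11b+, 3 of 10 were at least 2-fold higher and 1 lower than in Ly6g low, and 3 of 9 higher and 0 lower than in Ly6g high. These shares were at or below those of all measured genes, of which 30.3% and 44.5% were higher in these pairs.

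Interferon-stimulated genes were listed because Ly6a and Ly6e respond to interferon. Of 22 genes 4 were measured in the pair of Ly6g gates, with 2 at least 2-fold higher in Ly6g high, 0 lower, and a median log2 ratio of 1.27. The most extreme were few-cell signals: Rtp4 was at 42.3 TPM in Ly6g high from 4 cells, Bst2 (tetherin) at 27.9 TPM from 3 cells, and Oas2 (an RNA-sensing synthetase) at 28.1 TPM from 11 cells. Rtp4, Bst2 and Oas2 were detected in 0 of 41 Ly6g low cells. Each of these 3 genes fell short of the 25% of cells needed to count as measured. Below the same minimum, Ifit2 (log2 ratio -3.38) and Zbp1 (-3.18) were the only list members with a negative ratio. Ifit2 averaged 9.45 TPM over the Ly6g low gate, from 9 cells, and every Ly6g high cell was listed at 0 for it. The Zbp1 signal came from 2 cells of each of these gates. Over all measured genes in that pair 7.96% were higher and 23.7% lower, with a median of -0.29. Within Myelo-2 cells 0 of 4 measured genes of the list differed by 2-fold (median 0.53). Ly6a had a log2 ratio of 0.50 and Ly6e one of -1.31 in the same pair over all cells.

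The genes whose pattern across cells was most like that of Ly6g were Lgals3 (Spearman 0.54), S100a9 (0.51), Lcn2 (0.50), Actn1 (0.50) and Ifitm6 (0.49), of 3167 genes detected in at least 25% of the 127 cells. S100a9 encodes a calprotectin subunit and Lcn2 an iron-siderophore binding protein of specific granules, both abundant in neutrophils, Lgals3 is galectin-3 and Actn1 an actin crosslinker. Within Myelo-2 the same 5 correlations were 0.31, 0.35, 0.27, 0.29 and 0.24. For Ly6c2 the 5 were Cst3 (0.46), Hk3 (0.44), Gsto1 (0.43), Csf2ra (0.43) and Ap1s1 (0.43), which encode cystatin C, hexokinase 3, a glutathione transferase, the GM-CSF receptor alpha chain and an adaptor subunit of vesicle coats. No gene was among the first 5 of both. These values are descriptions over cells that share a sort within each gate and the TPM total, and that differ in genes detected.

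Markers of other cells moved with the gates beside these results. In Ly6g high over Ly6g low, 6 of 9 measured late neutrophil genes were at least 2-fold higher and 0 lower (Mmp8 644 against 0.917 TPM, Mmp9 333 against 3.42 TPM, Retnlg 3298 against 97.6 TPM), and 6 of 6 primary granule genes lower (Elane 98.2 against 4739 TPM, Cst7 2.51 against 109 TPM, Nkg7 28.7 against 734 TPM). Over all measured genes 7.96% were higher and 23.7% lower in that pair. Mpo, Prtn3, Cst7 and Nkg7 counted as measured only through Ly6g low, where they were higher, and Mmp8, Mmp9 and Fpr2 only through Ly6g high. Elane, Ms4a3 and Retnlg passed in both gates. The filter thus set part of the direction of these counts, and of those for the CD11b+ pairs below. In CD11b+ over Ly6g low, where the Ly6g ratio was -1.04, 6 of 8 late neutrophil genes were higher and 1 lower (median 1.92). These counts compare gate means, and the median of the summed late neutrophil list ran the other way. It was 720.4 TPM per CD11b+ cell, against 1412 TPM per Ly6g low cell, while the highest sums were 24840.1 and 4113 TPM. In the same pair 7 of 8 primary granule genes were higher (30.3% and 7.83% of all measured genes were higher and lower). In CD11b+ over Ly6g high, 2 of 10 late neutrophil genes were higher and 5 lower (median -0.99), and 8 of 8 primary granule genes higher (44.5% and 6.93% of all). In Ly6g high over Ly6g low the monocyte list had 1 of 12 genes measured, Lgals3 at a log2 ratio of 1.72. Each CD11b+ pair had 2 measured: 1 higher and 0 lower than in Ly6g low, and 1 higher and 1 lower than in Ly6g high. The summed monocyte list ran from 0 to 3794 TPM in Ly6g high, 0 to 2179 TPM in Ly6g low and 0 to 4280.0 TPM in CD11b+ cells. Its medians were 222, 38.8 and 21.6 TPM. Lgals3, also the gene most like Ly6g in pattern, had means of 378, 114 and 111 TPM. Each other gene of the list was detected in at most 6, 8 and 11 cells of these gates. The summed progenitor list had medians of 0.235, 8.67 and 89.2 TPM. Their part in the gate differences of the Ly6 genes was not tested.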

How the data were processed

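Expression was deposited by the authors on the log2(TPM + 1) scale, with 23946 genes in rows and 127 cells in columns. The unit was read from the values, which sum to 999633 to 1005383 per cell once back-transformed. Bowtie2, RSEM and the build mm9 are named per the submitters' processing notes, and versions, annotation and read assignment between like genes are not given in the sources used here. Sequencing was 150 bp paired-end with 96 cells per library, per the labels. The 11 class names are the authors' own, deposited for each cell, and how they were assigned is not stated in those sources.

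Log2 values were turned back to TPM. The main comparison is the log2 ratio of 2 gates' mean TPM after adding 1 TPM, which understates differences of low genes. Detection meant 1 TPM or more. Genes detected in 25% or more of one gate's cells counted as measured for a pair. A gene could therefore pass only through the gate where it was higher, in the lists and among all measured genes alike. Shares have exact (Clopper-Pearson) 95% intervals, and a share of 0 is given with the limit of 3 cells over the number of cells, both for counting error only. Each gate is 1 sample, so no p-value was computed. Spearman correlations across cells are descriptions. No doublet caller was run, no cell was left out, 0 columns lacked a sample, and 0 were duplicates (closest pair of cells: correlation 0.884).

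The members and lists were chosen with earlier results of these data known. Named were the members, Itgam and Kit, the 5 genes most correlated with Ly6g and with Ly6c2 (predicted loci, ribosomal, small RNA and mitochondrial genes left out), Ly6/uPAR genes detected in at least 10% of the cells of a gate, and at most 3 genes of each other list with the largest log2 ratio, in either direction, between the Ly6g gates. Coding sequences came from GENCODE M21 transcripts (GRCm38) and gene order from RefSeq (GRCm38.p6), with global alignments in Biopython 1.88. Python 3.11.15, pandas 2.3.3, numpy 2.4.6 and SciPy 1.17.1 were used. The ratio and correlation steps were run with changes planted in cells of these data, which checks the code only. Alternatives covered the pseudocount, the kind of mean, rescaling without granule genes, detection minimum, single cells, classes and genes detected.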

Additional observations from a re-analysis of the deposited data

How the results depend on the processing

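Of 162 alternative values for the gate ratios of the 5 genes and of Ly6c1 and Ly6c2 summed, 116 moved by less than 1.5-fold, 44 moved more and 2 changed the sign of a difference of at least 2-fold. A pseudocount of 10 TPM and rescaling without granule genes moved none of the 18 ratios by 1.5-fold. The sign of each ratio of Ly6g (3 pairs), Ly6a (3 pairs) and Ly6c2 in high over low held in all 9 alternatives. The cause of the changes below was not tested. No paired analysis was possible because each gate is 1 sample and cell numbers only name cells.

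Ratios are log2, in the order high over low, CD11b+ over low and CD11b+ over high where more than 1 is given. With differences of mean log2(TPM + 1), Ly6g was at 2.42, -2.30 and -4.71, Ly6e at -2.0, 2.59 and 4.59, Ly6a at -1.56 and -1.94 in the CD11b+ pairs, Ly6c2 at -1.35 and -0.66, the sum at -1.35 and -0.67, and Ly6c1 at -0.40 in CD11b+ over low. With a 10% trimmed mean, Ly6g was at -4.49 and -6.38 in the CD11b+ pairs and Ly6e at -4.75, 2.96 and 7.71. Without the tenth of the cells with the fewest genes, Ly6g was at -2.03 and -3.35 in the CD11b+ pairs. Without the highest cell of each gate, Ly6g was at -1.80 and -3.26 in the CD11b+ pairs and Ly6e at 3.94 in CD11b+ over high.

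With the 4 Myelo classes only, Ly6g was at -0.33 and -1.68 in the CD11b+ pairs, Ly6c2 and the sum at 0.27 in CD11b+ over high, Ly6c1 at -0.29 and 0.16 in the CD11b+ pairs, and Ly6e at -4.68 in high over low and 6.06 in CD11b+ over high. With Myelo-2 cells only, Ly6g was at -2.20 and -3.11 in the CD11b+ pairs, Ly6c2 at -1.01 and -0.47, the sum at -1.01 and -0.46, Ly6c1 at -1.22 in high over low and -0.59 in CD11b+ over low, and Ly6e at -4.22 in high over low and, reversed, at -0.94 in CD11b+ over low. With cells of 1500 to 3000 genes (29, 25 and 21 cells), Ly6g was at -1.80 in CD11b+ over low. Ly6c1 was there at -1.38 in high over low and -0.27 in CD11b+ over low. Ly6e was at 4.58 in CD11b+ over low and, reversed, at 2.03 in high over low. The highest Ly6e value in these Ly6g high cells was 1351 TPM, in cell number 85, and the next was 51.1 TPM.

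The share of cells with Ly6g and Ly6c2 together fell from 76.1% to 60.9% at a minimum of 5 TPM and 56.5% at 100 TPM in Ly6g high, and from 68.3% to 34.1% and 29.3% in Ly6g low. Their correlation of -0.12 was 0.05 in Myelo-2 cells. Numbers of genes at least 2-fold higher and lower were 317 and 944 for high over low, 1819 and 2929 without a filter on low values, and 188 and 560 with a pseudocount of 10 TPM. For CD11b+ over low they were 1447 and 374, 3714 and 1441 without a filter, and 169 lower with the pseudocount. For CD11b+ over high they were 1977 and 308, 4609 and 1464 without a filter, and 184 lower with the pseudocount. TPM keeps no read depth, so which values of 0 were missed transcripts cannot be said.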

Other observations

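Genes that followed Ly6e across the 127 cells, named outside the rule after their values were seen, were Nme2, Srgn and Mpo (Spearman 0.66 each), Set and Prdx2 (0.65 each). Srgn encodes serglycin, the proteoglycan that packs granule proteins, and Mpo is myeloperoxidase. The most opposed were S100a9 (-0.69) and Lcn2 (-0.68), which were among the 5 genes most like Ly6g. Within 72 Myelo-2 cells the same values were 0.19, 0.25, 0.31, 0.19, 0.28, -0.19 and -0.17, in that order.

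The genes most opposed to Ly6g, also named after their values were seen, were Ms4a3 and Prtn3 (-0.51 each), Mpo and Gstm1 (-0.50 each) and Nkg7 (-0.49). Ms4a3 marks granulocyte and monocyte progenitors, and Prtn3 and Mpo encode primary granule proteins. Within Myelo-2 cells they stood at -0.40, -0.31, -0.20, -0.31 and -0.19.

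A few cells combined values that seldom met. A CD11b+ Myelo-3 cell, number 35, held 2848 TPM of Ly6e with 7.18 TPM of Ly6g and 7.16 TPM of Ly6c2, and had the fewest genes detected of all cells of its gate, 821. A CD11b+ Myelo-4 cell, number 17, held 3493 TPM of Ly6g and 262 TPM of Kit. A CD11b+ Myelo-4 cell, number 46, was the only Myelo-4 cell of the 16 with Ly6e, at 1388 TPM, beside 10094 TPM of Ly6c2 and Ly6g listed at 0.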
